A study of Mus musculus with 8 samples.

Results

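The cytosolic ribosomal protein genes encode the protein part of the ribosome of the cytoplasm, and 64 of them, among 19494 named genes on the array, were followed here on 8 arrays of mouse alphaTC1.9 cells, a line of glucagon-producing pancreatic alpha cells that grew out of a tumour. Members were chosen by gene symbol, as every row named Rpl or Rps with a number and its usual letter endings, plus Rplp0, Rplp1 and Rpsa; pseudogene symbols and the kinases of S6 were left out. Of the members, 40 belong to the large subunit and 24 to the small subunit, and each had its own probe set. Rplp2, Rps3, Rpl10 and Rps27 had no matching named row and were not analysed here. The family was taken up after its members had been seen to lie lower in knockdown cells on these same arrays. Differences between the groups are therefore given for members as a description, with no test.

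IDE-KD cells carried a knockdown of insulin-degrading enzyme, a protease named for its action on insulin, made with a small interfering RNA against Ide, and gave 4 arrays. Control cells, also alphaTC1.9, gave 4 arrays; the labels do not say whether they received a non-targeting RNA. All cells came from the same line, grew in the same medium and were harvested without further treatment, and the sources used here do not state the time after knockdown. By their labels, the arrays are biological replicates of independent RNA, with no mention of separate cultures, so the spread between arrays may be in part technical. Values are log2 expression values, on which 1 unit is a 2-fold change, and the number of arrays limits their precision.

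A eukaryotic ribosome joins a small subunit, which reads the messenger RNA, to a large subunit, which forms the peptide bond. Its proteins are made in near equal numbers, and surplus copies that find no ribosomal RNA are degraded. Most of their messenger RNAs begin with a run of pyrimidines, the terminal oligopyrimidine or TOP motif, through which the mTORC1 pathway and the RNA-binding protein LARP1 control their translation and stability together. Endocrine cells rely on ribosomes for large amounts of hormone precursor.

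Start regions of members were read from RefSeq (GRCm38.p6) because the shared start of these messenger RNAs is the best known feature that the choice by name did not use. The table held a promoter for 51 of the 64 members, from 250 bases before to 50 bases after the annotated start, and a gene with several starts was counted if any of them matched. A C at the annotated start followed by at least 4 bases that are each C or T was present in 12 of the 51 members (23.5%), against 813 of 27025 genes of all kinds in the table (3.01%). A run of 8 or more C or T within 20 bases of the start was present in 23 members (45.1%), against 18.4% of all genes. The windows below run from 20 bases before the start through 20 bases of the transcript, so the annotated start follows the first 20 letters, and capitals mark the longest run of C and T in each window. The first 4 are members whose run crosses the start, and the last 3 are members that the results turn on and that lack such a run across the start shown. Rps19 and Rpl10a have several annotated starts, and the first of each is shown.
Rpl28 (chr7:4792945-4792984, plus strand): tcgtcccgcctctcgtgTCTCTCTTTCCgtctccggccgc
Rps18 (chr17:33955646-33955685, minus strand): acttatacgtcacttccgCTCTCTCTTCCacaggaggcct
Rps6 (chr4:86857348-86857387, minus strand): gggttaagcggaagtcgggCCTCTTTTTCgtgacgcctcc
Rpl35 (chr2:39005112-39005151, minus strand): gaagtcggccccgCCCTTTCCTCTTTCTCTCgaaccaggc
Rps19 (chr7:24884572-24884611, plus strand): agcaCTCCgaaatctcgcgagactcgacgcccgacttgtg
Rpl27 (chr11:101442225-101442264, plus strand): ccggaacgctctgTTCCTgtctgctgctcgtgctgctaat
Rpl10a (chr17:28328451-28328490, plus strand): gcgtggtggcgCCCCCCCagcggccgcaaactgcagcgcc

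Other motifs were searched on both strands of the whole 300-base window, and none of them contains another. CCGGAAG, the core bound by ETS-family factors such as GABP, was present in 21 of 51 member promoters (41.2%), against 9.93% of all genes. GGGCGG, an SP1-type box, was present in 30 (58.8%, against 38.2%), AAGATGG, a YY1-type core, in 8 (15.7%, against 7.28%) and TATAAA in 7 (13.7%, against 15.7%). Rps6 and Rps19 show how far members differ at the start: the Rps6 run begins 1 base before the annotated start, whereas the longest run in the first Rps19 window has 4 bases. The 23 members with a long run and the 28 without had median differences between IDE-KD array 2 and IDE-KD array 1 of 0.435 and 0.442 log2 units. These are matches of letters at annotated starts and say nothing of binding.

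Ide (probe set TC1900001454.mm.2) read 7.91, 8.14, 7.92 and 8.05 on IDE-KD arrays 1 to 4, against 8.66, 8.62, 8.72 and 8.48 on control arrays 1 to 4. Every IDE-KD array lay below every control array, with a log2 difference of -0.62 (SE 0.12) and an exact two-sided permutation p of 0.0286, the smallest that 4 against 4 arrays allow. Limma's adjusted p over all rows was 1.00. Gcg, the glucagon gene, was at 12.06 ± 0.10 in IDE-KD and 12.06 ± 0.07 in control cells (SD, n = 4 each), and all 7 measured alpha cell markers were above the median array control row of 4.52. Below that row were 6 of 9 markers of other islet cells, 4 of 5 exocrine, 3 of 5 fibroblast, 3 of 3 immune and 4 of 4 endothelial markers. Correlations between arrays ran from 0.984 to 0.993 within groups and from 0.984 to 0.991 between them.

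Of 22142 tested rows, 0 were lower and 0 higher by limma with an adjusted p under 0.05 (0.00% in each direction), so 0 of the 64 members were called. At an unadjusted p under 0.05, 1.91% of all rows were lower and 2.69% higher. For 0 members did the 4 IDE-KD arrays lie wholly below or wholly above the 4 control arrays, as they did for 1.41% and 1.39% of all rows. The 95% confidence interval of a member reached a median of 0.31 to each side of its difference, which gives the precision of the arrays.

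Most members read slightly lower in IDE-KD than in control cells, and the tilt rested on a pair of the 4 IDE-KD arrays. The fitted difference was below 0 for 45 of 64 members (70.3%), against 47.9% of all tested rows and 59.4% of the 2581 rows at a mean level of 8 or more, the range that held 56 of the members. The median difference was -0.06 over the family, -0.03 over the 40 large subunit genes (26 lower) and -0.06 over the 24 small subunit genes (19 lower), against 0.0074 over all rows. Subtracting array medians, renewed quantile normalization and cyclic loess left the family median between -0.07 and -0.03, with 41 to 50 members lower. In bulk RNA, fewer cells that express a gene strongly and less of its RNA per cell cannot be told apart, and scaling between arrays removes any change in total RNA.

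By array, the family's median distance from the control mean was -0.33 on IDE-KD array 1, 0.13 on array 2, -0.15 on array 3 and 0.07 on array 4. On control arrays 1 to 4 it was -0.09, 0.02, -0.03 and 0.10. IDE-KD arrays 1 and 3 thus lay below all control arrays, and IDE-KD array 2 above all of them, while IDE-KD array 4 lay among the controls. Control arrays 1 and 3 likewise lay below control arrays 2 and 4, over a narrower range. On IDE-KD array 1, 45 members had their lowest value of the 8 arrays (70.3%, against 14.3% of all rows), and 8 had it on IDE-KD array 3 (12.5%, against 16.4%). On IDE-KD array 2, 30 members had their highest value (46.9%, against 15.7%). Among the 2525 other rows at a mean level of 8 or more, these 3 shares were 24.5%, 20.7% and 26.9%, in the same order. The arrays were picked by the family's own medians, so the shares among members are not independent of that choice.

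Without IDE-KD array 1 the family median turned to 0.04, with 26 members lower (47.9% of all rows were lower in that fit). Without IDE-KD arrays 1 and 3 it was 0.12, with 17 of 64 lower (against 48.9% of all rows). This pair holds the family's lowest IDE-KD medians, so leaving it out raises the family's difference by construction. Without IDE-KD array 3 alone it was -0.0086, with 35 lower, and without IDE-KD array 2 it was -0.13, with 58 lower. The direction of the family's difference therefore depended on which IDE-KD array was left out.

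**Figure D1:**
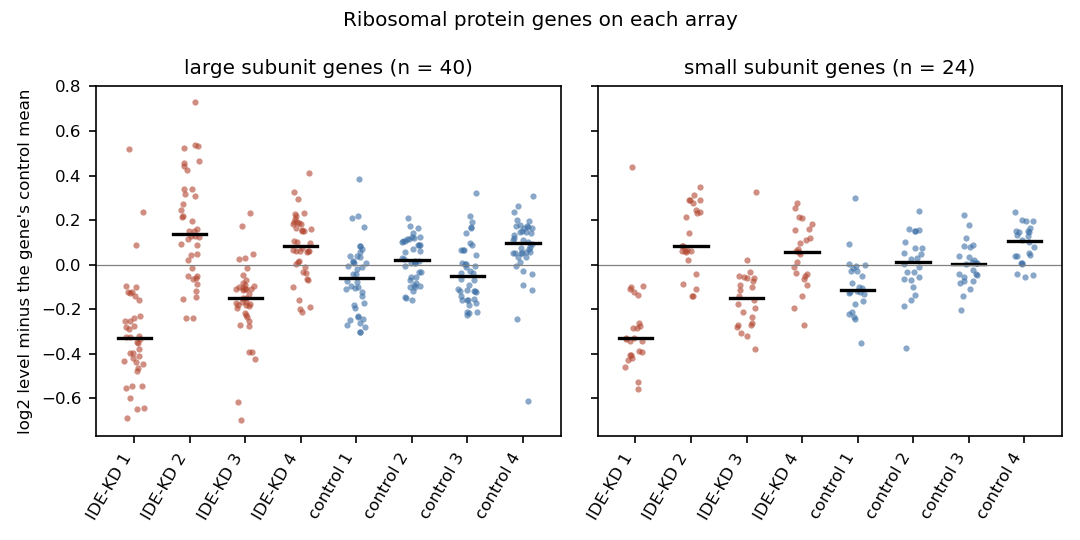
Each point is a ribosomal protein gene's log2 level on that array minus its mean over the 4 control arrays, for 40 large subunit genes (left) and 24 small subunit genes (right), and the black bar is the median. The medians are lowest on IDE-KD array 1 (-0.33 in each subunit) and highest on IDE-KD array 2 for the large subunit (0.14) and control array 4 for the small subunit (0.11).

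Some other measures set IDE-KD arrays 1 and 3 apart as well. The SD over all tested rows was 2.16 and 2.13 there, whereas the remaining 6 ranged from 2.20 to 2.25. The exon control rows averaged 6.95 and 6.92 there, and 7.05 to 7.13 elsewhere. The exon minus intron control difference was 2.757 and 2.725 there, and 2.743 and 2.712 on control arrays 1 and 3. On the even-numbered arrays of both groups it was higher, from 2.784 to 2.854. It thus set odd-numbered arrays of both groups apart from even-numbered ones, not IDE-KD arrays 1 and 3 alone. On these arrays the 2525 other rows at a level of 8 or more had medians of -0.05 and -0.08 relative to the control mean, and the 9526 rows below the median control row had medians of 0.09 and 0.12. Bright rows in general were thus lower there and dim rows higher, by less than the family on IDE-KD array 1. Markers of other cell types, mostly such dim rows, were higher in IDE-KD cells for 5 of 5 exocrine, 5 of 5 fibroblast, 4 of 4 endothelial, 2 of 3 immune and 7 of 9 other islet markers. Of the 9526 dim rows as a whole, 5869 were higher in IDE-KD cells. The exocrine markers' median distance from the control mean ran from 0.02 to 0.40 over the IDE-KD arrays and from -0.14 to 0.08 over the control arrays. That of the fibroblast markers ran from -0.03 to 0.31 over IDE-KD and from -0.24 to 0.15 over control arrays. For endothelial markers it ran from -0.08 to 0.29 over IDE-KD and from -0.05 to 0.10 over control arrays. The highest medians of these lists on IDE-KD arrays came from arrays 1 or 3. For immune markers the range was -0.20 to 0.47 over IDE-KD and -0.11 to 0.14 over control arrays, and for other islet markers -0.11 to 0.40 over IDE-KD and -0.24 to 0.16 over control arrays. The part of these measures in the family's values was not tested.

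Large and small subunit genes varied alike from array to array. The large minus small difference of the medians was 0.001, 0.054, 0.003 and 0.026 on IDE-KD arrays 1 to 4, against 0.054, 0.010, -0.055 and -0.011 on control arrays 1 to 4. The groups overlapped, so any difference between the subunits lay within the spread of arrays. Below the control mean on both IDE-KD arrays 1 and 3 lay 56 members (87.5%). The share was 31.7% of all rows and 48.4% of the 2525 other rows at a level of 8 or more. Of all members, 38 lay below the control mean on IDE-KD arrays 1 and 3 and above it on arrays 2 and 4 (59.4%). This held for 10.6% of all rows and 21.4% of the other rows at a level of 8 or more. Both patterns were read from the family's own array medians, so high shares among members follow in part from that choice. By contrast, 9 lay below the control mean on all 4 IDE-KD arrays (14.1%, against 9.38% of all rows), and 0 lay above it on all 4 (against 10.1%). Among the other rows at a level of 8 or more these shares were 13.15% and 6.5%. The count of 9 was thus near the share of bright rows.

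Those 9 members were Rpl36al, Rpl27, Rps19, Rpl7a, Rpl37, Rpsa, Rps25, Rpl22l1 and, named only after its values were seen, Rpl37a. Among them Rps19, a protein of the small subunit head needed to mature its ribosomal RNA and the first gene found mutated in human Diamond-Blackfan anaemia, read 8.09, 8.46, 8.17 and 8.41 on IDE-KD arrays 1 to 4, against 8.31, 8.46, 8.73 and 8.72 on control arrays 1 to 4. Its group levels were 8.29 ± 0.18 in IDE-KD cells and 8.55 ± 0.21 in control cells (SD, n = 4 each), a difference of -0.27 (SE 0.14). IDE-KD arrays 1 and 3 were the lowest of the 8, and the other IDE-KD arrays overlapped control arrays 1 and 2. Without IDE-KD arrays 1 and 3 its difference was -0.11.

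Rpl27, a large subunit protein that is likewise mutated in Diamond-Blackfan anaemia, read 8.003, 8.22, 7.59 and 8.22 on IDE-KD arrays 1 to 4, against 8.06, 8.41, 8.25 and 8.44 on control arrays 1 to 4. IDE-KD array 3 was the lowest of the 8, and the difference of -0.28 (SE 0.16) was -0.14 without it.

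Rpl36al, a copy of the Rpl36a gene that makes a nearly identical protein, had the lowest fitted difference of the family, -0.35 (SE 0.15), as the extreme of 64 members of a family chosen for lying lower. It read 7.85, 8.35, 7.79 and 8.22 on IDE-KD arrays 1 to 4, against 8.14, 8.57, 8.40 and 8.52 on control arrays 1 to 4. Again IDE-KD arrays 1 and 3 were below all controls while IDE-KD arrays 2 and 4 were among them. Its parent gene Rpl36a read 8.60, 9.30, 8.88 and 9.10 on IDE-KD arrays 1 to 4, against 8.89, 8.84, 9.06 and 9.20 on control arrays 1 to 4, a difference of -0.02 (SE 0.16).

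Rps3a1, which lines the exit of the messenger RNA on the small subunit, read 9.04, 9.42, 9.05 and 9.17 on IDE-KD arrays 1 to 4, against 9.27, 9.30, 9.46 and 9.45 on control arrays 1 to 4, with a difference of -0.20 (SE 0.13). Rpsa, also known as the laminin receptor precursor and mutated in human congenital asplenia, read 8.71, 8.95, 9.02 and 9.09 on IDE-KD arrays 1 to 4, against 8.74, 9.17, 9.17 and 9.29 on control arrays 1 to 4, a difference of -0.15 (SE 0.15). At Rps3a1, IDE-KD arrays 1, 3 and 4 were below every control, whereas for Rpsa control array 1 lay among the IDE-KD arrays. Rps25, which certain viral messenger RNAs need for entry without a cap, read 8.92, 9.01, 8.96 and 8.79 on IDE-KD arrays 1 to 4, against 8.92, 9.21, 9.09 and 8.997 on control arrays 1 to 4, with a difference of -0.14 (SE 0.12). Its lowest value came from IDE-KD array 4, and its difference without IDE-KD arrays 1 and 3 was -0.16. Rps4x, encoded on the X chromosome, differed by -0.13 (SE 0.14) and Rps18 by -0.13 (SE 0.13), each with IDE-KD array 1 lowest. Without that array the differences were -0.05 for Rps4x and -0.03 for Rps18, and that of Rpsa was -0.07.

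In the large subunit the next lowest after Rpl36al and Rpl27 were Rpl7a at -0.18 (SE 0.13), Rpl37 at -0.17 (SE 0.13), Rpl35a at -0.16 (SE 0.15) and Rpl36 at -0.16 (SE 0.15). Rpl7a read 9.77, 9.86, 9.99 and 10.06 on IDE-KD arrays 1 to 4, against 9.86, 10.20, 10.11 and 10.25 on control arrays 1 to 4. The IDE-KD arrays were low together, but control array 1 lay among them. Rpl37 read 10.64, 10.62, 10.35 and 10.68 on IDE-KD arrays 1 to 4, against 10.60, 10.62, 10.83 and 10.91 on control arrays 1 to 4, where IDE-KD array 3 stood below the rest. Without IDE-KD arrays 1 and 3, Rpl35a and Rpl36 turned to 0.04 and 0.09, whereas Rpl7a and Rpl37 were at -0.14 and -0.09. Leaving out 1 array moved the difference by over 1.5 times in at least 1 case for 34 of the 38 named members, the exceptions being Rps19, Rps3a1, Rpl7a and Rpl36al.

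**Figure D2:**
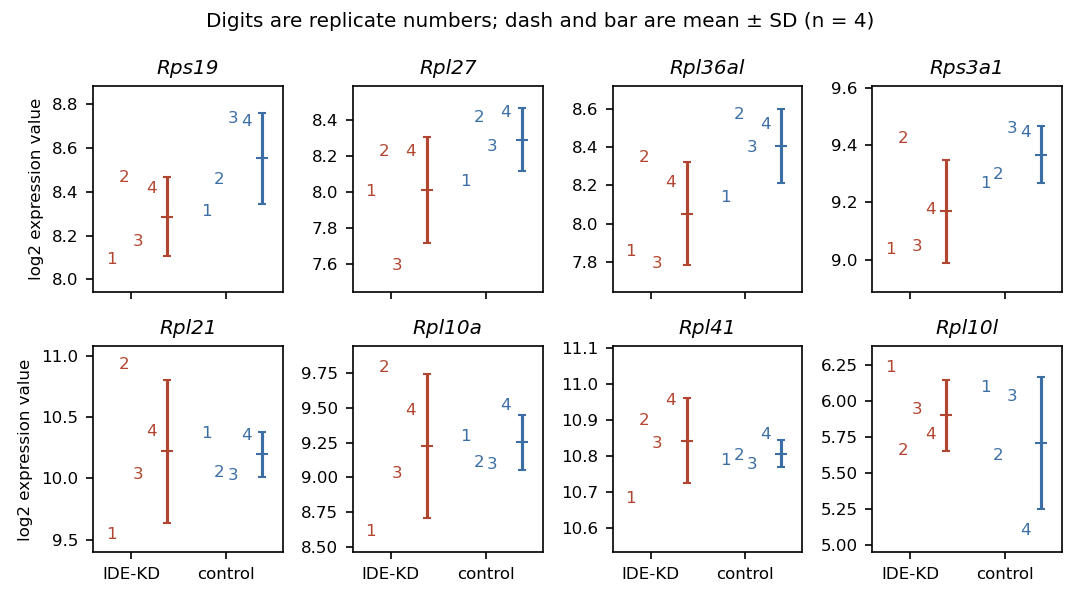
Log2 expression values of 8 members, with IDE-KD left and control right, digits standing for replicate numbers and bars for mean ± SD (n = 4). Rps19, Rpl27, Rpl36al and Rps3a1 have their lowest values on IDE-KD arrays 1 or 3, Rpl21 and Rpl10a span more than 1 log2 unit over the IDE-KD arrays, and Rpl10l has its highest value on IDE-KD array 1.

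On the upper side, Rpl31 differed by 0.08 (SE 0.18) and Rpl28 by 0.08 (SE 0.16) among the large subunit genes, and Rps14, the small subunit gene behind the anaemia of a human chromosome arm deletion syndrome, by 0.05 (SE 0.12). Rps29, also on the small subunit, differed by 0.03 (SE 0.14). Rpl28 read 9.76, 10.60, 10.06 and 10.22 on IDE-KD arrays 1 to 4, against 10.13, 10.13, 9.95 and 10.09 on control arrays 1 to 4. Its IDE-KD values spread on both sides of a narrow control group. Rpl10l and Rps4l had the highest fitted differences and are described with the paralogs.

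The widest swings were within the IDE-KD group. The SD was larger on IDE-KD than on control arrays for 49 of 64 members (76.6%), against 61.8% of all rows and 63.2% of rows at a level of 8 or more. The median range over 4 arrays was 0.54 in IDE-KD and 0.31 in control cells. In 4 members, Rpl21, Rpl10a and, named only after their values were seen, Rpl23 and Rpl6, the IDE-KD arrays ranged over more than 1 log2 unit, which 0 members did on the control arrays.

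Rpl21, a large subunit protein, read 9.54, 10.93, 10.03 and 10.38 on IDE-KD arrays 1 to 4, against 10.37, 10.05, 10.02 and 10.35 on control arrays 1 to 4. IDE-KD array 1 was the lowest and IDE-KD array 2 the highest of the 8, 1.38 apart, while the group difference was 0.02 (SE 0.23). Rpl10a, which forms the flexible stalk beside the exit site for spent transfer RNA, read 8.61, 9.79, 9.03 and 9.48 on IDE-KD arrays 1 to 4, against 9.29, 9.11, 9.10 and 9.52 on control arrays 1 to 4, with the same order and a difference of -0.03 (SE 0.22). Rpl22, which binds RNA hairpins and is needed for T cell development in mice, read 8.50, 9.41, 9.04 and 9.20 on IDE-KD arrays 1 to 4, against 9.19, 9.12, 9.36 and 9.10 on control arrays 1 to 4, so that IDE-KD array 1 alone was far below the others. Its difference of -0.15 (SE 0.17) was 0.03 without that array. The level on IDE-KD array 2 exceeded that on IDE-KD array 1 in 58 of 64 members. These arrays hold the family's highest and lowest IDE-KD medians, so a high count follows in part from their choice. The share over all rows was not computed. The other rows at a level of 8 or more had medians of -0.05 on IDE-KD array 1 and 0.02 on IDE-KD array 2.

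At the other end, Rpl41, which encodes the shortest protein of the ribosome, had the smallest SD within groups (0.09). It read 10.68, 10.90, 10.84 and 10.95 on IDE-KD arrays 1 to 4, against 10.79, 10.80, 10.78 and 10.86 on control arrays 1 to 4, a difference of 0.04 (SE 0.11). Rps24 (SD 0.10) and Rps28 (SD 0.11), both mutated in Diamond-Blackfan anaemia, followed, with differences of 0.01 (SE 0.12) and -0.09 (SE 0.12). Rps24 read 9.31, 9.63, 9.38 and 9.37 on IDE-KD arrays 1 to 4, against 9.40, 9.38, 9.42 and 9.45 on control arrays 1 to 4, and here too the ends were IDE-KD arrays 1 and 2.

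**Figure D3:**
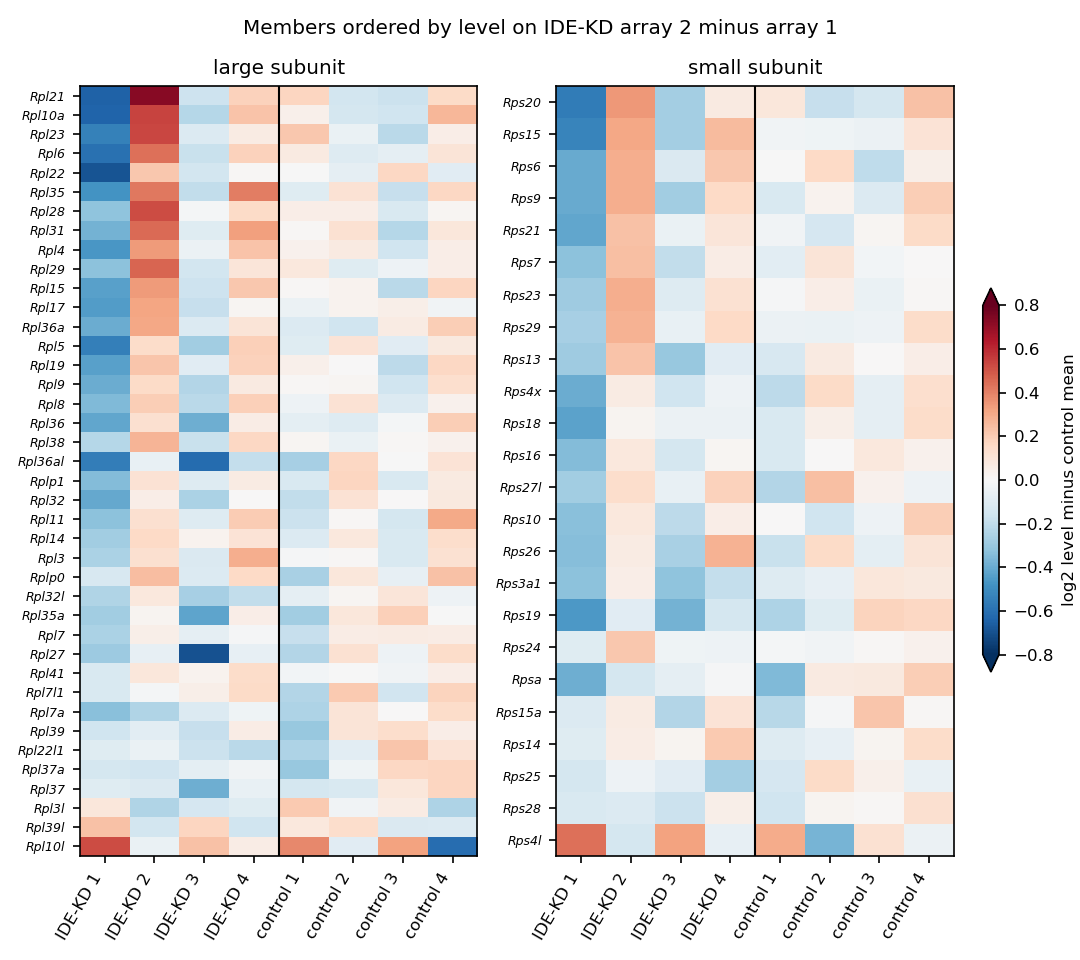
Rows are members, ordered within each subunit by the level on IDE-KD array 2 minus that on IDE-KD array 1, and columns are arrays, with IDE-KD left of control. Colour is the log2 level minus the gene's control mean (blue lower, red higher); most rows are blue on IDE-KD arrays 1 and 3 and red on arrays 2 and 4, and Rpl10l and Rps4l at the bottom are red on IDE-KD array 1.

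Members with well-known roles at or beyond the ribosome were also lowest on IDE-KD array 1. Rps6, the protein that S6 kinase phosphorylates downstream of mTORC1, read 9.20, 9.90, 9.49 and 9.82 on IDE-KD arrays 1 to 4, against 9.61, 9.77, 9.40 and 9.65 on control arrays 1 to 4, and its difference was -0.0036 (SE 0.16). Rpl3, which reaches the peptidyl transferase centre, differed by 0.01 (SE 0.14). Rpl5 and Rpl11 form a particle with 5S ribosomal RNA that can also bind the p53 inhibitor Mdm2. Rpl5 read 8.91, 9.61, 9.18 and 9.65 on IDE-KD arrays 1 to 4, against 9.36, 9.57, 9.37 and 9.54 on control arrays 1 to 4, and Rpl11 read 9.66, 10.12, 9.89 and 10.20 on IDE-KD arrays 1 to 4, against 9.82, 10.000, 9.85 and 10.30 on control arrays 1 to 4. Both were lowest on IDE-KD array 1 and the groups overlapped, with differences of -0.12 (SE 0.16) and -0.02 (SE 0.15).

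The stalk of the large subunit, which recruits elongation factors, is built on Rplp0 and carries Rplp1. Rplp0 read 8.60, 8.97, 8.62 and 8.88 on IDE-KD arrays 1 to 4, against 8.46, 8.81, 8.66 and 8.96 on control arrays 1 to 4, and its lowest value was that of control array 1. Rplp1 read 10.21, 10.67, 10.45 and 10.62 on IDE-KD arrays 1 to 4, against 10.43, 10.73, 10.44 and 10.62 on control arrays 1 to 4, with IDE-KD array 1 lowest. Their differences of 0.04 (SE 0.14) and -0.07 (SE 0.14) were within the spread between arrays.

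In all, 4 paralogs, the members with the lowest mean levels (3.33 to 5.80), were set apart by their order over the IDE-KD arrays. Rpl10l, a retrogene that replaces X-linked Rpl10 in male germ cells, read 6.23, 5.66, 5.94 and 5.77 on IDE-KD arrays 1 to 4, against 6.09, 5.62, 6.03 and 5.09 on control arrays 1 to 4. Its highest value was on IDE-KD array 1 and its lowest on control array 4, with the highest fitted difference of the family, 0.19 (SE 0.21), which was -0.01 without control array 4. Rps4l read 5.26, 4.68, 5.15 and 4.76 on IDE-KD arrays 1 to 4, against 5.12, 4.45, 4.95 and 4.78 on control arrays 1 to 4, a difference of 0.14 (SE 0.17) that was -0.10 without IDE-KD arrays 1 and 3. Rpl39l, the testis form of Rpl39, and Rpl3l, the muscle form of Rpl3, were the 2 members below the median control row of 4.52. Rpl39l was at 3.35 ± 0.21 in IDE-KD cells and 3.32 ± 0.13 in control cells (SD, n = 4 each), and Rpl3l was at 3.40 ± 0.14 in IDE-KD cells and 3.49 ± 0.19 in control cells (SD, n = 4 each). All of these 4 lay higher on IDE-KD array 1 than on IDE-KD array 2, as did Rpl37 and Rpl37a by 0.019 and 0.016. Rows below the median control row likewise had a higher median on IDE-KD array 1 (0.09) than on IDE-KD array 2 (-0.03). The brighter paralogs Rpl36al, Rps27l, Rpl7l1 and Rpl22l1 lay higher on IDE-KD array 2, like most of the family. The order was thus seen in dim paralogs only.

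Among broadly used pairs, Rpl22l1, the paralog of Rpl22, read 7.41, 7.45, 7.33 and 7.29 on IDE-KD arrays 1 to 4, against 7.26, 7.42, 7.72 and 7.61 on control arrays 1 to 4, with a difference of -0.13 (SE 0.13) and the widest values in the control group. Rpl7l1 differed by 0.02 (SE 0.14), against -0.07 (SE 0.12) for Rpl7, and Rps27l, a p53-inducible relative of Rps27, by -0.0024 (SE 0.14). Rpl39, which lines the exit tunnel of the nascent chain, differed by -0.09 (SE 0.13). RefSeq names 210 pseudogenes after 45 of the members, 23 of them after Rpl31, 15 after Rpl21 and 13 after Rps19. Short probes may read such copies, so values of members with close copies are uncertain as measures of the parent gene alone.

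**Figure D4:**
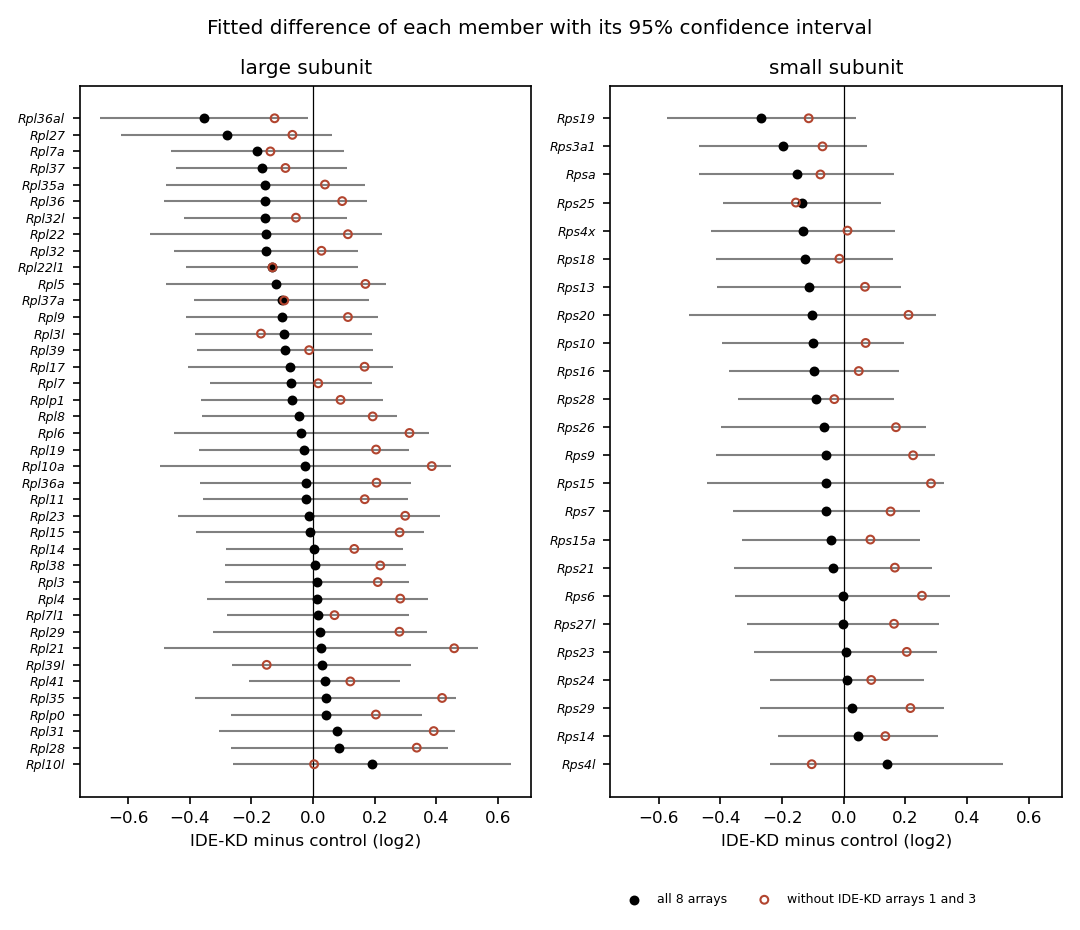
Black points are fitted IDE-KD minus control differences (log2) over all 8 arrays with 95% confidence intervals, and open red points the differences without IDE-KD arrays 1 and 3, for the large (left) and small (right) subunit. All 8 arrays give 45 of 64 differences below 0, and leaving out the pair of arrays leaves 17 of 64 below 0. The pair left out holds the family's lowest IDE-KD medians, so an upward shift follows from the choice of arrays.

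Groups within the family gave similar counts. Proteins with counterparts in bacteria were lower for 8 of 11 measured small subunit genes (median -0.06) and 8 of 12 large subunit genes (median -0.02). On IDE-KD array 1 all 12 of these large subunit genes lay below the control mean, with a median of -0.42, and on IDE-KD array 2 all 12 lay above it, with a median of 0.22. Of the 14 measured genes mutated in Diamond-Blackfan anaemia, 11 were lower (median -0.06), and 3 were lower without IDE-KD arrays 1 and 3. Fau, whose product carries a small subunit protein and whose name falls outside the symbol rule, differed by 0.05 (SE 0.18).

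Genes that work with the ribosome were read in the same way, as lists drawn up with earlier results of these data known, and limma called 0 members of any of them. Their counts stand beside 47.9% of all rows and 59.4% of rows at a level of 8 or more that were lower. Of 17 measured translation factors and partners with TOP messenger RNAs, 13 were lower (median -0.04), and their array medians of -0.29, 0.13, -0.10 and 0.12 on IDE-KD arrays 1 to 4 ran in the order of the ribosomal proteins. Of 47 ribosome biogenesis genes 28 were lower (median -0.02), with array medians of -0.08, 0.06, -0.06 and 0.07, a smaller swing. The differences largest in size were -0.27 (SE 0.17) for Dkc1, the pseudouridine synthase of small nucleolar particles, and 0.21 (SE 0.20) for Nop10, a protein of the same particles. Without IDE-KD arrays 1 and 3 they were -0.27 for Dkc1 and 0.61 for Nop10, and 19 of the 47 genes were lower. Of the translation factors 4 of 17 were lower without those arrays.

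The 76 mitochondrial ribosomal protein genes, whose products build the separate ribosome of mitochondria, had 40 lower members and a median of -0.0070. Their array medians were -0.23, 0.27, -0.16 and 0.15 on IDE-KD arrays 1 to 4, against -0.04, 0.07, -0.10 and 0.05 on control arrays 1 to 4. The swing between IDE-KD arrays was thus of like size in this list, and the SD was larger on IDE-KD arrays for 60 of its 76 genes. Mrpl23 had the difference largest in size, -0.40 (SE 0.21), and it was 0.02 without IDE-KD arrays 1 and 3, where 8 of the 76 genes were lower. Whether the cytosolic and mitochondrial lists differ was not tested.

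**Figure D5:**
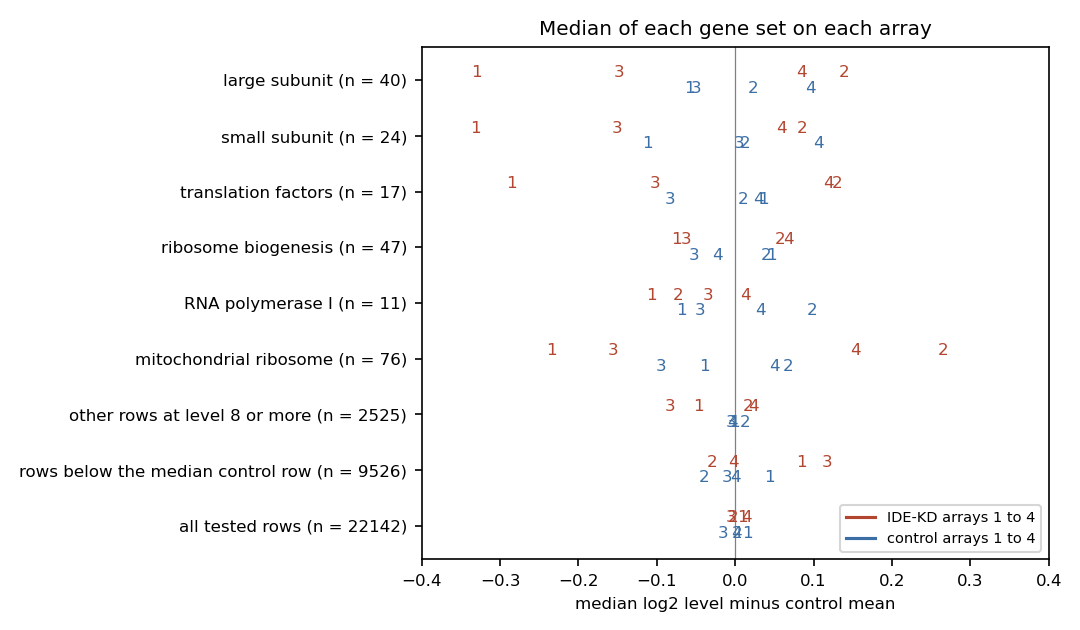
For each gene set the digits 1 to 4 give the median log2 level minus the control mean on the array with that replicate number, IDE-KD in red above control in blue. Cytosolic ribosomal, translation factor and mitochondrial ribosomal genes are low on IDE-KD arrays 1 and 3 and high on arrays 2 and 4, whereas rows below the median control row are high on IDE-KD arrays 1 and 3 (0.09 and 0.12).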

How the data were processed

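Gene expression was measured on Clariom S arrays in 4 IDE-KD and 4 control samples of alphaTC1.9 cells. The deposited values are log2 expression values, and RMA, oligo and limma are the tools listed, with no versions, per the submitters' processing notes. RMA in its usual form corrects background, equalises array distributions and summarises probes, which compresses low signals. Of 29129 deposited rows, 22142 transcript clusters were tested, 6923 array control rows and 64 unplaced rows were left out, and 19527 tested rows had 1 gene symbol in the platform table, 2615 none. The sources used here do not give the probe sets' genome build. IDE-KD minus control was fitted over all tested rows with limma 3.58.1 in R 4.3.3, with Benjamini-Hochberg adjustment. Simulated data had these rows' means and variances, 4 arrays against 4, independent noise and a set of changed rows planted in each round. On these it recovered 40.7% of 1.5-fold and 98.7% of 2-fold changes over 22142 rows. The real arrays share deviations across rows, so these shares do not give the power in the real data. The median half-width of a member's 95% confidence interval was 0.31. Members and lists were chosen with earlier results of these data known. Named members were the given markers Rps19 and Rpl27, the 6 lowest and 3 highest differences per subunit, paralog pairs, stalk genes and members of known role, and the 3 with the largest and smallest SD within groups; of each list outside the family, up to 3 genes with the largest difference in size were named. Others are marked as chosen after their values were seen. The median array control row, 4.52, marks a low signal. Replicate numbers were checked for pairing, and alternatives are given in the closing section.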

Additional observations from a re-analysis of the deposited data

Results flagged for a closer look

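In groups of 4 arrays, an array was looked at again when its gap to the nearest other passed the limit of Dixon's test at the 95% level, which chance alone gives in about 1 of 20 groups; 86 groups were checked and 4 met it. Rpl37 read 10.35 on IDE-KD array 3, against 10.62 to 10.68 on the other IDE-KD arrays. Rps18 read 9.49 on IDE-KD array 1, against 9.87 to 9.94 on the other IDE-KD arrays. Rps29 read 10.41 on control array 4, against 10.20 to 10.22 on the other control arrays. Rpl7 read 10.04 on control array 1, against 10.28 to 10.29 on the other control arrays.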

How the results depend on the processing

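The count of rows called over all genes was 0 under every alternative run (trended and robust variances, array weights, 3 scalings, dim rows left out, the replicate block and each array left out). The number of members lower was 45, and 17 without IDE-KD arrays 1 and 3, where the family median was 0.12. Those are the IDE-KD arrays on which the family itself read lowest. Leaving out 1 array gave 26 (without IDE-KD array 1) to 58 (without IDE-KD array 2 or 4) members lower, and medians of -0.13 to 0.04 for the family, -0.13 to 0.06 for the large and -0.16 to 0.03 for the small subunit. The family, large and small subunit medians turned above 0 both without IDE-KD array 1 and without IDE-KD arrays 1 and 3, and in no other alternative run. The 38 named members moved by under 1 SD within groups in all 568 values under the alternatives listed first, and 20 of them changed sign in at least 1. Without IDE-KD arrays 1 and 3, an alternative for single members chosen after seeing the data, 9 moved by 1 SD or more (Rpl36, Rpl31, Rps29, Rpl3, Rpl39l, Rps6, Rpl5, Rpl10a and Rpl21) and 14 changed sign. Ide differed by -0.66 to -0.58 without 1 array, where the smallest exact p is 0.0571, and by -0.62 with the replicate block, where 4 pairs cannot go below 0.125 and gave 0.125. Same-numbered arrays had correlated deviations of 0.10, 0.13, 0.09 and 0.10 over all rows, and IDE-KD arrays 1 and 3 correlated better with the other odd-numbered control array (0.16 and 0.17). IDE-KD array 4 correlated best with control array 2 (0.21). Only pairs of an IDE-KD and a control array were compared. Among them, every pair of an odd-numbered and an even-numbered array was negative, from -0.23 to -0.05. All odd-odd and even-even pairs among them were positive. What lies behind this split was not tested. Leaving out IDE-KD arrays 1 and 3 sets only even-numbered IDE-KD arrays against control arrays of both kinds. In every difference from that fit, group and this split cannot be told apart. Since not every same-numbered pair was over 0.1, the numbers were not taken as pairs, and the block changed no fitted difference. Every member had 1 row, so averaging rows of a gene changed nothing. The number of arrays limits what can be seen: the 95% confidence interval of a member reached a median of 0.31 to each side of its difference.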

Other observations

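Genes that govern ribosome production gave the following values. For comparison, 47.9% of all rows and 59.4% of rows at a level of 8 or more were lower in IDE-KD cells. Of 11 measured RNA polymerase I genes, 9 were lower in IDE-KD cells (median -0.05), and without IDE-KD arrays 1 and 3 the count was 6. Taf1c, a subunit of the promoter selectivity factor, had the difference largest in size, -0.23 (SE 0.17), and -0.48 without those arrays. Ubtf, which encodes the architectural factor of ribosomal DNA transcription, was at 8.21 ± 0.10 in IDE-KD and 8.42 ± 0.07 in control cells (SD, n = 4 each), with every IDE-KD array below every control array, as for 1.41% of all rows, and a difference of -0.22 (SE 0.11, limma adjusted p = 1.00). Its difference was -0.30 without IDE-KD arrays 1 and 3. Polr1a, the largest subunit of the polymerase, differed by -0.13 (SE 0.12), and by -0.13 without those arrays. Of 18 measured regulators around mTORC1, Myc and p53, 12 were lower (median -0.04), and 9 without IDE-KD arrays 1 and 3. Those with the differences largest in size were Eif4ebp1, a translation repressor that mTORC1 phosphorylates, at 0.33 (SE 0.16), Myc, a transcription factor that drives ribosome biogenesis, at -0.25 (SE 0.18), and its relative Mycn at -0.23 (SE 0.17). Without IDE-KD arrays 1 and 3 the difference was 0.57 for Eif4ebp1, -0.12 for Myc and 0.0007 for Mycn. None of these passed limma's threshold over all rows.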
